A study of Mus musculus with 9 samples.

Results

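Guanylin (Guca2a), uroguanylin (Guca2b) and their receptor guanylate cyclase C (Gucy2c) were read across sorted epithelial cells of the mouse small intestine and kidney. The members were the non-control probes that the scanner files assign to these 3 genes. That gave 3 genes with 1 probe each, out of 28478 gene names and 41174 probes, and all 3 passed the filter on dim probes that 19993 genes passed. Cells came from C57BL/6 mice in 9 samples, 3 in each of 3 groups. Small intestinal cells released with EDTA were sorted as Epcamhi MHChi (MHCIIhi) or as Epcamint MHCint (MHCIIlo), where Epcam is a cell-cell adhesion protein of epithelia and MHC class II shows peptides to helper T cells. Kidney cells, freed by enzyme digestion (collagenase, dispase and DNase), were taken as Epcam-positive, and every gate left out cells stained for the leukocyte protein CD45 or for Fluorogold, which marked dead cells. Each intestinal sample pooled cells of 3 mice and each kidney sample cells of 4 mice, so values of single animals were not measured. No genetic change or treatment was part of any group.

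Guanylin and uroguanylin are small peptides that epithelial cells secrete, mainly into the lumen of the gut. They bind guanylate cyclase C on the apical membrane, which then makes cyclic GMP. Cyclic GMP activates protein kinase G type II, which opens the chloride channel CFTR and restrains the sodium-proton exchanger NHE3, so that salt and water stay in the lumen. Uroguanylin is also known as a natriuretic peptide in the kidney.

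The sequences that the arrays read show which part of each transcript the values report on. The Gucy2c probe, printed whole, starts at base 3077 of its transcript, and its 60 bases spread over 1496 bp of genome (chromosome 6, 136663702 down to 136662207 on mm8, minus strand), so it crosses an intron. The Guca2a probe starts at base 346 (chromosome 4, 119136786 to 119136845 on mm8). Its first 24 bases are printed with the first stop triplet in frame with its first base in capitals, since the rest lies beyond that triplet.
Gucy2c probe: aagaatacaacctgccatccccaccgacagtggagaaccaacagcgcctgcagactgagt
Guca2a probe, first bases: tacgctgcctgtacgggatgcTAG
The Guca2b probe starts at base 499 of its transcript (chromosome 4, 119154637 down to 119154578 on mm8, minus strand) and is not printed. The longest run of bases that the guanylin and uroguanylin probes share is 7, and each shares at most 6 with the Gucy2c probe. Both peptide genes lie side by side, with 17792 bp from the lowest base of one probe to the lowest base of the other on mm8, and are read from opposite strands.

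The stretches of 250 bases before the transcription starts of both peptide genes were taken from RefSeq (GRCm38.p6), since these neighbours shared the order of the groups. The Guca2a stretch is chr4:119637482-119637731 on the plus strand and the Guca2b stretch is chr4:119658946-119659195 on the minus strand. Capitals mark matches to a GATA motif (AGATAA), searched on both strands.
Guca2a promoter: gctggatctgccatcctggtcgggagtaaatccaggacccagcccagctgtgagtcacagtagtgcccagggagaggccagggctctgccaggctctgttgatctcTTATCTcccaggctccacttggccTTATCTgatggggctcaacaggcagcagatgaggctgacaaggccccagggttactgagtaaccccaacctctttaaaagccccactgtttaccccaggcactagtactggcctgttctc
Guca2b promoter: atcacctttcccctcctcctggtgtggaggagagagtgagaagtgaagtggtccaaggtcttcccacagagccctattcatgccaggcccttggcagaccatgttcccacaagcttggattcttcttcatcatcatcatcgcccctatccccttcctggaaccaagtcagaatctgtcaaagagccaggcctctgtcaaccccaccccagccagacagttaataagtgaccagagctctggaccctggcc
The GATA motif had 2 matches in the Guca2a stretch, at -144 and -120, none in the Guca2b stretch, and a match in the same window of 9.99% of 32851 RefSeq promoters. Neither stretch held the letters searched for HNF4 (CAAAGNNCA, 5.49% of promoters) or CDX factors (TTTAT, 37.3%). These letters were chosen after the stretches had been read, and a match is a description of the sequence only. No promoter of Gucy2c was read.

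Levels below are log2 processed signal minus the 75th percentile of the array, so a difference of 1 is a 2-fold difference. The percentile lay between 213 and 371 for MHCIIhi, between 100.6 and 185 for MHCIIlo and between 599 and 770 for kidney, and 51.0 to 73.2% of spots were well above background. Markers were read against the labelled tissues. Umod of the thick ascending limb stood at 8.87 to 8.95 on the kidney arrays and was not well above background on any intestinal array. The goblet cell genes Muc2 and Tff3 and the enterocyte gene Sis were well above background on all 6 intestinal arrays and on 0 of 3 kidney arrays. Other genes of these lists were measured in kidney at lower levels: 5 to 7 of 10 goblet genes, among them Agr2 at -4.89 to -4.36, and 7 to 8 of 12 enterocyte genes, among them Alpi and Lct on 2 of 3 arrays, were well above background there. All 10 goblet genes were nevertheless called lower in kidney in both comparisons, as 22.8% of all genes were against MHCIIhi and 27.8% against MHCIIlo. MHCIIhi 3 shared a slide and scan with the 3 MHCIIlo arrays, MHCIIhi 1 and 2 had another, and the kidney arrays had their own, so kidney and slide cannot be told apart. Kidney 1 stood apart from the other kidney arrays: 934 of 19166 genes measured there lay more than 1 from the mean of the other two, against 307 for kidney 2 and 351 for kidney 3. A limma fit to all 9 arrays called a gene where its Benjamini-Hochberg adjusted p was below 0.05 and its log2 difference at least 1 in either direction. In RNA of sorted pools, fewer cells of a type and less RNA per cell cannot be told apart.

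All 3 transcripts were well above background on 9 of 9 arrays, kidney included. Both peptide transcripts were highest in MHCIIlo, lower in MHCIIhi and lowest in kidney, with no overlap between any of the groups. Such a lack of overlap was common: it held for 56.4% of all genes between the intestinal groups. Between kidney and MHCIIhi it held for 72.1%, and between kidney and MHCIIlo for 78.2%. The receptor transcript stood at about the same level in both intestinal groups, which overlapped, and far lower in kidney. Kidney was called lower for 3 of 3 members, where 22.8% of all genes were called lower against MHCIIhi and 27.8% against MHCIIlo. Between the intestinal groups 0 of 3 members were called, where 31% of all genes were.

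**Figure D1:**
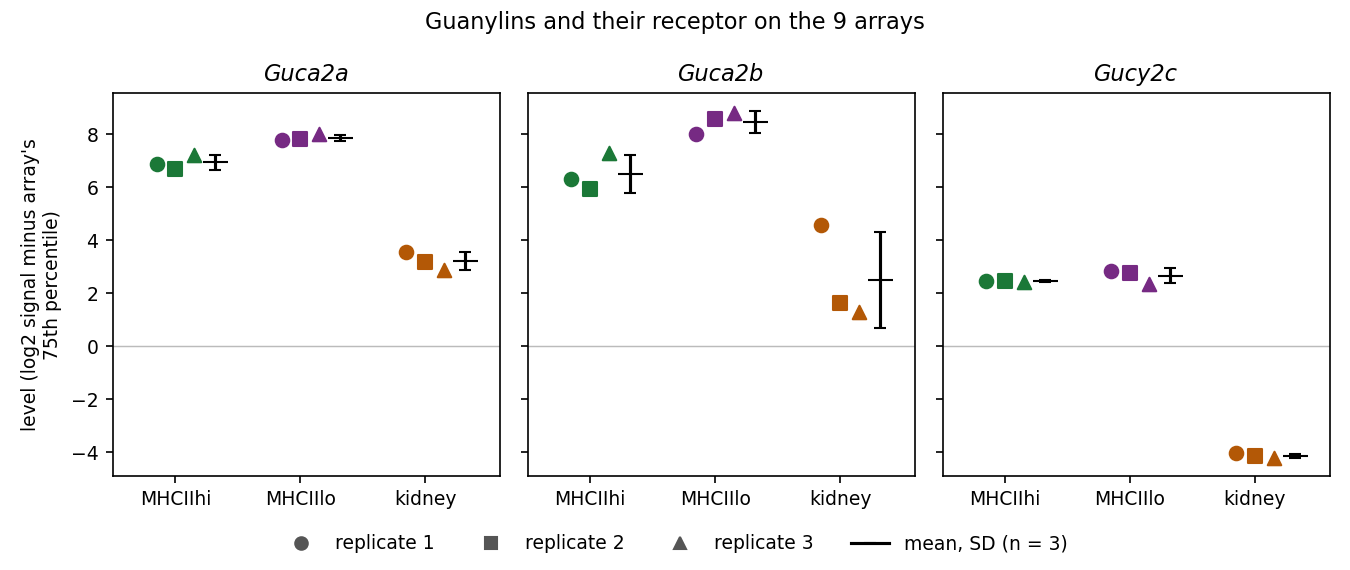
Level of each transcript (y axis, log2, relative to the 75th percentile of the array) on the 9 arrays, by group (x axis), with the marker shape giving the replicate and black bars the mean and SD of 3 arrays. For Guca2b the kidney replicate 1 sits at 4.59, between the intestinal arrays and the other kidney arrays at 1.63 and 1.30. The panels compare arrays for 1 probe each, not the probes with each other.

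Guca2a, the guanylin precursor, stood at 6.89, 6.68 and 7.22 in MHCIIhi, at 7.78, 7.82 and 7.99 in MHCIIlo and at 3.57, 3.18 and 2.87 in kidney. Every MHCIIlo array was higher than every MHCIIhi array, and every kidney array was lower than both. The means were 6.93 ± 0.27, 7.86 ± 0.11 and 3.21 ± 0.35 (SD, n = 3). Guanylin thus had narrow groups, and the gap between gut and kidney was several times the spread within any of them.

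MHCIIhi was lower than MHCIIlo in Guca2a by a log2 difference of -0.93 ± 0.22 (SE; 95% interval -1.44 to -0.42; limma adjusted p = 0.0105). The adjusted p passed the threshold and the size did not, so Guca2a was not called, while the median of all 19993 genes tested in this comparison was -0.24. Across this comparison 31% of genes were called, 16.1% as lower and 14.9% as higher in MHCIIhi, and 56.4% of genes had groups that did not overlap, as Guca2a and Guca2b did. Guca2a was called when arrays were scaled to the median of the genes measured on every array (-1.01, adjusted p = 0.00780) and when MHCIIhi 3 was left out (-1.08, adjusted p = 0.00597). With slide as a fixed block, which compares MHCIIhi 3 with its slide mates, the difference was -0.64 (adjusted p = 0.197), and over all alternatives the adjusted p ran from 0.00387 to 0.197. Before scaling the processed signals of Guca2a overlapped, at 37880, 38009 and 31844 in MHCIIhi and 40534, 27381 and 25551 in MHCIIlo. The groups separated once each array was scaled to its own percentile, which was higher on every MHCIIhi array than on any MHCIIlo array.

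Against kidney, Guca2a differed from MHCIIhi by -3.72 ± 0.22 (SE; 13.2-fold lower in kidney, 95% interval 9.26 to 18.8; adjusted p = 1.51e-06 by limma). The difference of kidney from MHCIIlo was -4.65 ± 0.22 (25.2-fold lower; limma adjusted p = 3.58e-07). In these comparisons 48.4% and 57.6% of all genes were called in either direction, 25.6% and 29.8% as higher in kidney. The arrays of kidney and MHCIIhi did not overlap for 72.1% of genes, and those of kidney and MHCIIlo for 78.2%. Guca2a kept its call in both under all 24 alternatives of each, with values of -4.00 to -3.21 against MHCIIhi and -4.95 to -3.87 against MHCIIlo. The guanylin transcript still lay above the 75th percentile of every kidney array.

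Guca2b, the uroguanylin precursor, stood at 6.29, 5.91 and 7.29 in MHCIIhi, at 8.00, 8.56 and 8.81 in MHCIIlo and at 4.59, 1.63 and 1.30 in kidney. MHCIIhi 3 was the highest of its group and kidney 1 far the highest of its own, but no array crossed into another group. The means were 6.50 ± 0.71, 8.46 ± 0.42 and 2.51 ± 1.81 (SD, n = 3), and each SD was larger than that of guanylin in the same group. Unlike those of Guca2a, its processed signals separated the intestinal groups before scaling too, at 25058, 22324 and 33307 in MHCIIhi and 47313, 45672 and 45240 in MHCIIlo.

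The log2 difference of MHCIIhi from MHCIIlo in Guca2b was -1.96 ± 0.79 (SE; 95% interval -3.75 to -0.17), which at a limma adjusted p of 0.0651 was not called. This call turned on the spread of the kidney arrays, which the fit pools with the others. On the 6 intestinal arrays alone the same difference had an SE of 0.40 and an adjusted p of 0.0158, and without kidney 1 the adjusted p was 0.00688, both calls. It was also called without MHCIIhi 3 (-2.36, adjusted p = 0.0478), whereas slide as a fixed block gave -1.17 (adjusted p = 0.496), the ends of the range over all alternatives being 0.00688 and 0.496. Within its slide MHCIIhi 3 was thus still below the 3 MHCIIlo arrays in both peptide transcripts, by less than the group means.

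**Figure D2:**
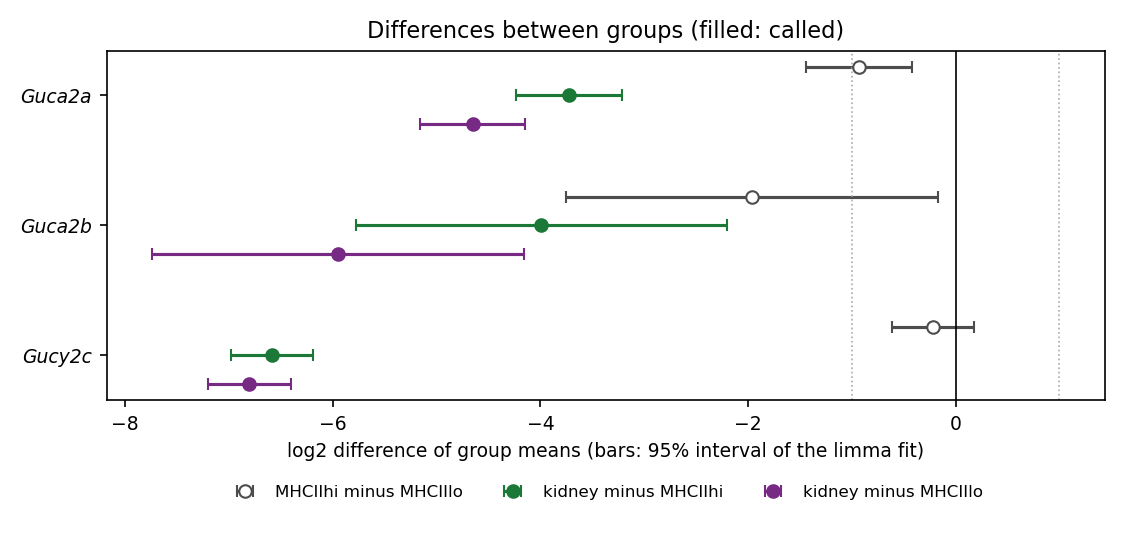
Log2 differences between group means (x axis) for the 3 transcripts (y axis) in the 3 comparisons, with 95% intervals from the limma fit to all 9 arrays. Filled points passed the rule, open points did not, and dotted lines mark a difference of 1 in either direction. All 6 differences from kidney are filled, from -3.72 to -6.80, and the intervals of Guca2b are the widest.

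Kidney was lower than MHCIIhi in Guca2b by -3.99 ± 0.79 (SE; 15.9-fold, 95% interval 4.60 to 55.0; limma adjusted p = 0.00193). It was lower than MHCIIlo by -5.95 ± 0.79 (61.9-fold; limma adjusted p = 0.000139). Kidney 1 carried much of the width: without it the differences were -5.03 and -6.99, and both calls held either way. Guca2b ranked 95 of 19993 genes by its SD over the kidney arrays, which was 1.81 against a median of 0.18 over all genes.

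Gucy2c, the receptor, stood at 2.47, 2.46 and 2.41 in MHCIIhi, at 2.86, 2.78 and 2.36 in MHCIIlo and at -4.04, -4.16 and -4.22 in kidney. The lowest MHCIIlo array lay below all MHCIIhi arrays and the other MHCIIlo arrays above them, whereas the kidney arrays lay together far below. The difference of MHCIIhi from MHCIIlo was -0.22 ± 0.18 (SE; 95% interval -0.62 to 0.18; limma adjusted p = 0.317), and its sign was positive with quantile normalization (0.0020) and with normexp background correction (0.06). The interval covers differences of less than 1 in size, and the sign of a difference that small was not settled.

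In kidney Gucy2c was 96.0-fold lower than in MHCIIhi (-6.59 ± 0.18, SE; limma adjusted p = 2.18e-08). Against MHCIIlo it was 111.8-fold lower (-6.80 ± 0.18; limma adjusted p = 1.41e-08). The kidney signals of 36.4, 37.2 and 41.3 were dim, and with normexp, which lifts dim signals, the difference from MHCIIhi was -5.16. The calls held under all 24 alternatives of each comparison.

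Whether members changed by unequal amounts was tested on their log2 ratio within each array, which does not depend on the scaling, for 3 pairs in 3 comparisons. With 3 arrays against 3 the exact two-sided permutation test cannot go below p = 0.1, which is 0.15 after adjustment over the 9 tests, so no pair could pass. The uroguanylin difference between the intestinal groups was larger than the guanylin difference by 1.03 ± 0.32 (SE; 2.04-fold), and the ratios of MHCIIhi (-0.06 to 0.77) and MHCIIlo (-0.82 to -0.22) did not overlap (exact permutation p = 0.1). Both peptides also differed more than the receptor, with ratios to Gucy2c that differed by -0.71 ± 0.28 for Guca2a and by -1.74 ± 0.57 for Guca2b, again without overlap (exact permutation p = 0.1 each).

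The measured drop from gut to kidney was larger for the receptor than for guanylin, by an amount that depended on background correction. The permutation test could not establish this, since no pair could pass it. The order of the receptor against uroguanylin from MHCIIlo was not settled. The drop from MHCIIhi was larger for Gucy2c than for Guca2a by 2.86 ± 0.23 (SE; 7.28-fold), and by 2.15 ± 0.26 from MHCIIlo, with no overlap of the ratios (exact permutation p = 0.1 each). With normexp, which lifts the dim kidney signals of Gucy2c, the gap was smaller. The drops from MHCIIhi were then -3.64 for Guca2a and -5.16 for Gucy2c, and those from MHCIIlo -4.22 and -5.09. For Guca2b against Gucy2c the values were 2.59 ± 1.08 from MHCIIhi, without overlap, and 0.85 ± 1.06 from MHCIIlo, with overlap (exact permutation p = 0.1 and 0.6). The latter turned to -0.14 without kidney 1 and to -0.38 with normexp. Guca2a and Guca2b could not be told apart in their drop to kidney, at 0.27 ± 0.90 and 1.30 ± 0.88 (exact permutation p = 0.8 and 0.4), because kidney 1 had a ratio of -1.02 and the other two 1.55 and 1.58.

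The kidney 1 value of Guca2b belonged to a wider set of differences of that array. Its Guca2b level was 8.71-fold above the mean of kidney 2 and 3, and 0.287% of the 19166 genes measured there stood further above (rank 56). Guca2a was 1.46-fold above (rank 1532) and Gucy2c 1.11-fold above (rank 6290). Uroguanylin was therefore the only member for which kidney 1 lay far from both other kidney arrays.

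Of 10 proximal tubule genes, 6 also stood more than 1 above on kidney 1 and 1 more than 1 below. Of all 19166 genes measured on every kidney array, 542 stood more than 1 above and 392 more than 1 below. Lrp2, the endocytic receptor megalin, stood at 4.93 against 2.22 and 2.33, and its partner Cubn at 2.58 against -0.66 and -0.88. Slc27a2, a fatty acid transporter, stood at 4.64 against 1.22 and 1.08. The phosphate transporter Slc34a1 of the early proximal tubule was level at 2.62, 2.69 and 2.60, and Acsm2 was lower at 1.69 against 2.73 and 2.74. The summed level of this list was 8.71 on kidney 1 against 7.00 and 6.80. Summed levels add linear signals, so the brightest gene weighs most, here Kap at 8.22 against 6.29 and 6.17.

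Of 8 genes of the thick ascending limb and distal tubule and 9 of the collecting duct, 0 moved by more than 1 in either direction on that array. Their summed levels were 9.52, 9.62 and 9.79, and 7.69, 7.62 and 7.64. Of 6 endothelial genes, 3 stood more than 1 below on kidney 1, with a summed level of 4.79 against 6.00 and 5.59. Of gut markers, 5 of 10 goblet and 7 of 12 enterocyte genes were well above background on kidney 1, against 7 and 6 goblet and 7 and 8 enterocyte genes on kidney 2 and 3. The summed goblet level was 0.45 against 0.44 and 0.22, and the summed enterocyte level 4.84 against 3.97 and 3.57. Alpi and Lct were not well above background on kidney 1 but were on the other two, and Muc2, Tff3 and Sis were on none. Of 5 enterocyte genes measured on all kidney arrays, 2 stood more than 1 above on kidney 1, the brush border enzymes Treh and Anpep, and Fabp1 was well above background on that kidney array alone, at -5.70. The part of any of these cell types in the Guca2b value was not tested.

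**Figure D3:**
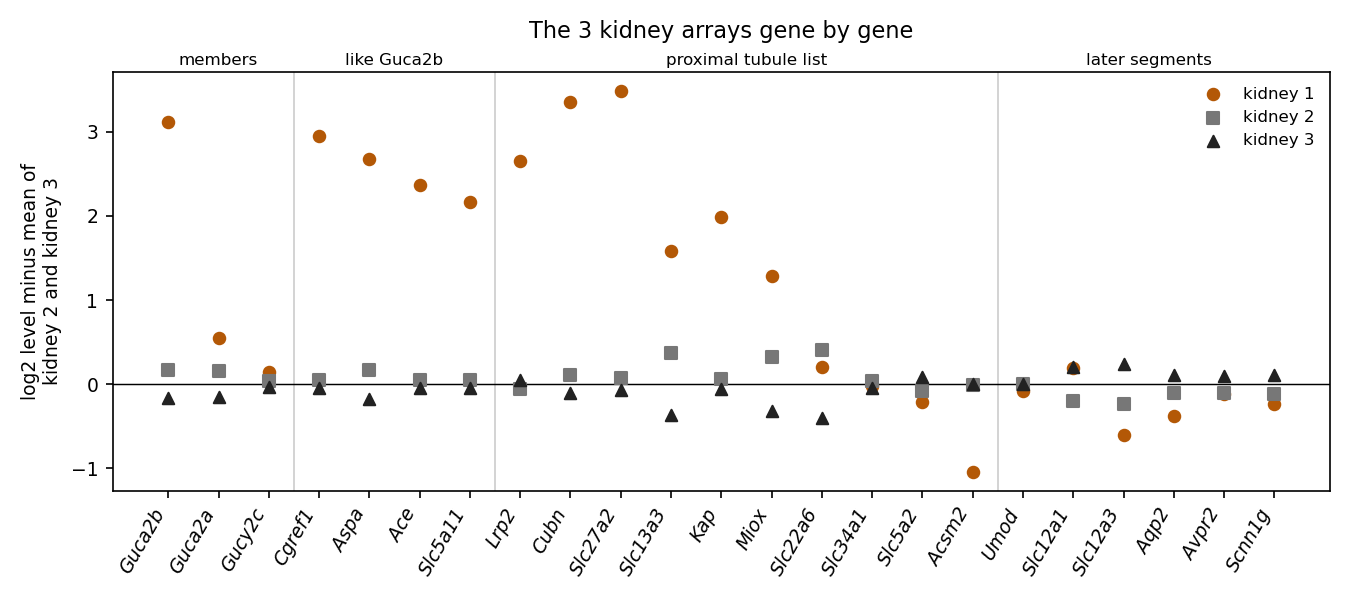
Level on each kidney array minus the mean of kidney 2 and kidney 3 (log2, y axis) for the 3 members, 4 of the 5 genes with the pattern most like Guca2b, 10 proximal tubule genes and 6 genes of later nephron segments (x axis). Kidney 1 is 3.12 above that mean for Guca2b and 0.54 above for Guca2a, and genes of the later segments lie near 0. The genes like Guca2b were picked on arrays that include these, so their raised kidney 1 follows from the choice.

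Between the intestinal groups the marker lists moved as well, where 14.9% of all genes were called higher and 16.1% lower in MHCIIhi. Of 12 enterocyte genes, 0 were called higher and 10 lower in MHCIIhi, with summed levels of 9.98 to 11.21 against 11.67 to 12.28 in MHCIIlo. Within MHCIIhi, replicate 3 had the highest enterocyte sum and also the highest Guca2a and Guca2b. Its sums of goblet (11.16), T cell (1.62), plasma and B cell (1.12) and fibroblast genes (5.02) were the highest of the group too. Its sums of Paneth (7.02), crypt stem (4.15) and proliferation genes (6.11) were the lowest. It was also the only array of its group on the slide of MHCIIlo. Between the groups, secretory and crypt lists ran opposite to the enterocyte list. Called higher in MHCIIhi were 6 of 10 goblet, 6 of 6 Paneth, 5 of 8 crypt stem and 8 of 8 proliferation genes. Of these lists, 0 genes were called lower. Enteroendocrine genes had 1 call of 9, higher in MHCIIhi, and tuft cell genes had 0 of 6 in either direction. Of non-epithelial genes, 3 of 7 plasma and B cell, 5 of 7 T cell and 4 of 5 fibroblast genes stood lower in MHCIIhi with 0 higher, and macrophage and dendritic cell genes had 1 higher and 3 lower of 5. The part of these cell types in the levels of the members was not tested.

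Among the genes through which the peptides act, 44 of 57 listed genes were tested (53 were on the array). Between the intestinal groups 8 were called higher and 15 lower in MHCIIhi, with a median of -0.86 against -0.24 over all genes. By the same rule 14.9% of all genes were higher and 16.1% lower. From MHCIIhi to kidney 19 pathway genes were higher and 19 lower (median -0.50 against -0.02). From MHCIIlo 19 were higher and 22 lower (median -1.02 against 0.04). Over all genes 25.6% were higher and 22.8% lower in kidney than in MHCIIhi, and 29.8% and 27.8% than in MHCIIlo. With slide as a fixed block 9 pathway genes passed between the intestinal groups, and without MHCIIhi 2 the count was 15.

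The kinase that carries the signal had the same order of groups as the peptides. Prkg2, the protein kinase G type II that phosphorylates CFTR, stood at 1.55 in MHCIIhi, 3.15 in MHCIIlo and -1.97 in kidney. MHCIIhi was lower than MHCIIlo by -1.60 ± 0.40 (SE; limma adjusted p = 0.0124), and kidney was lower than MHCIIlo by -5.13. Pde5a, which degrades cyclic GMP, had that order too, with -1.02 ± 0.25 in MHCIIhi against MHCIIlo (limma adjusted p = 0.0120) and -6.75 in kidney, but its other probe differed by -0.31 between the intestinal groups, which was not called. The intestinal call of Pde5a was also lost with the mean of its probes (-0.66), quantile normalization (-0.83), normexp (-0.70), slide as a random block (-0.90), without MHCIIhi 2 (-0.79) and without MHCIIlo 3 (-0.89). Pde9a, another cyclic GMP phosphodiesterase, differed by -1.57 and -4.57 in these comparisons, both called. The other kinase, Prkg1, was not well above background on any intestinal array and was at least 3.63-fold higher in kidney than in MHCIIhi (limma adjusted p = 0.00101), a call lost with normexp (0.074) and with the mean of its probes (0.53). With slide as a fixed block the intestinal differences of Prkg2 (-1.15), Pde5a (-0.60) and Pde9a (-1.18) were not called.

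The other guanylate cyclases that passed the filter were highest in kidney, where Gucy2c was lowest. All 6 tested genes of the group of natriuretic peptide receptors and soluble cyclases were called higher in kidney in both comparisons. By the same rule 25.6% of all genes were higher in kidney than in MHCIIhi, and 29.8% than in MHCIIlo. Npr1, Npr2, Npr3, Gucy1a1 and Gucy1b1 passed the filter through the kidney arrays alone, so their order follows in part from the filter. Gucy2e and Gucy2f passed it in no group. Most of the 6 tested genes were dim in the gut. With normexp Npr1 (0.036) and Gucy1b1 (0.35) lost the call against MHCIIhi, and Npr2 lost it against MHCIIlo (0.75). Npr1 (-0.79) and Gucy1b1 (-0.54) turned lower against MHCIIlo with normexp. Npr3, the clearance receptor of natriuretic peptides, was at least 22.7-fold higher in kidney than in MHCIIhi and at least 10.6-fold higher than in MHCIIlo. Npr2, the receptor of C-type natriuretic peptide, was at least 18.0-fold higher than in MHCIIhi by its brightest probe. Its 3 probes disagreed, with differences of -0.14 to 5.77 from MHCIIhi, of which 2 were called higher, and against MHCIIlo 2 were called higher and 1 lower (-1.13). Such bounds set the brighter group's mean against, on each array of the dimmer group, the lowest signal that counted as well above background or the probe's own, whichever was higher.

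Pde1a, a calcium-dependent phosphodiesterase, was at least 177-fold higher in kidney than in MHCIIlo and was well above background on 1 of 3 MHCIIhi arrays. Of 11 phosphodiesterases tested, 6 were higher and 4 lower in kidney than in MHCIIhi. By the same rule 25.6% of all genes were higher and 22.8% lower. Pde1a, Pde1c and Pde10a passed the filter through the kidney arrays alone, and Pde11a, called lower, through the intestinal arrays alone. The directions of these genes therefore follow in part from the filter. Pde2a was called higher by its brightest probe, and its other probe differed by 0.13, not called. The exporter Abcc4, which carries cyclic nucleotides out of cells, was higher in kidney than in either intestinal group, by 3.67 ± 0.23 against MHCIIhi (SE; limma adjusted p = 1.78e-06) and by 5.15 against MHCIIlo. It was also higher in MHCIIhi than in MHCIIlo, by 1.49 ± 0.23 (limma adjusted p = 0.00179), the reverse order of the peptides, though it was not called with normexp (0.061) or with the mean of its probes (0.82).

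**Figure D4:**
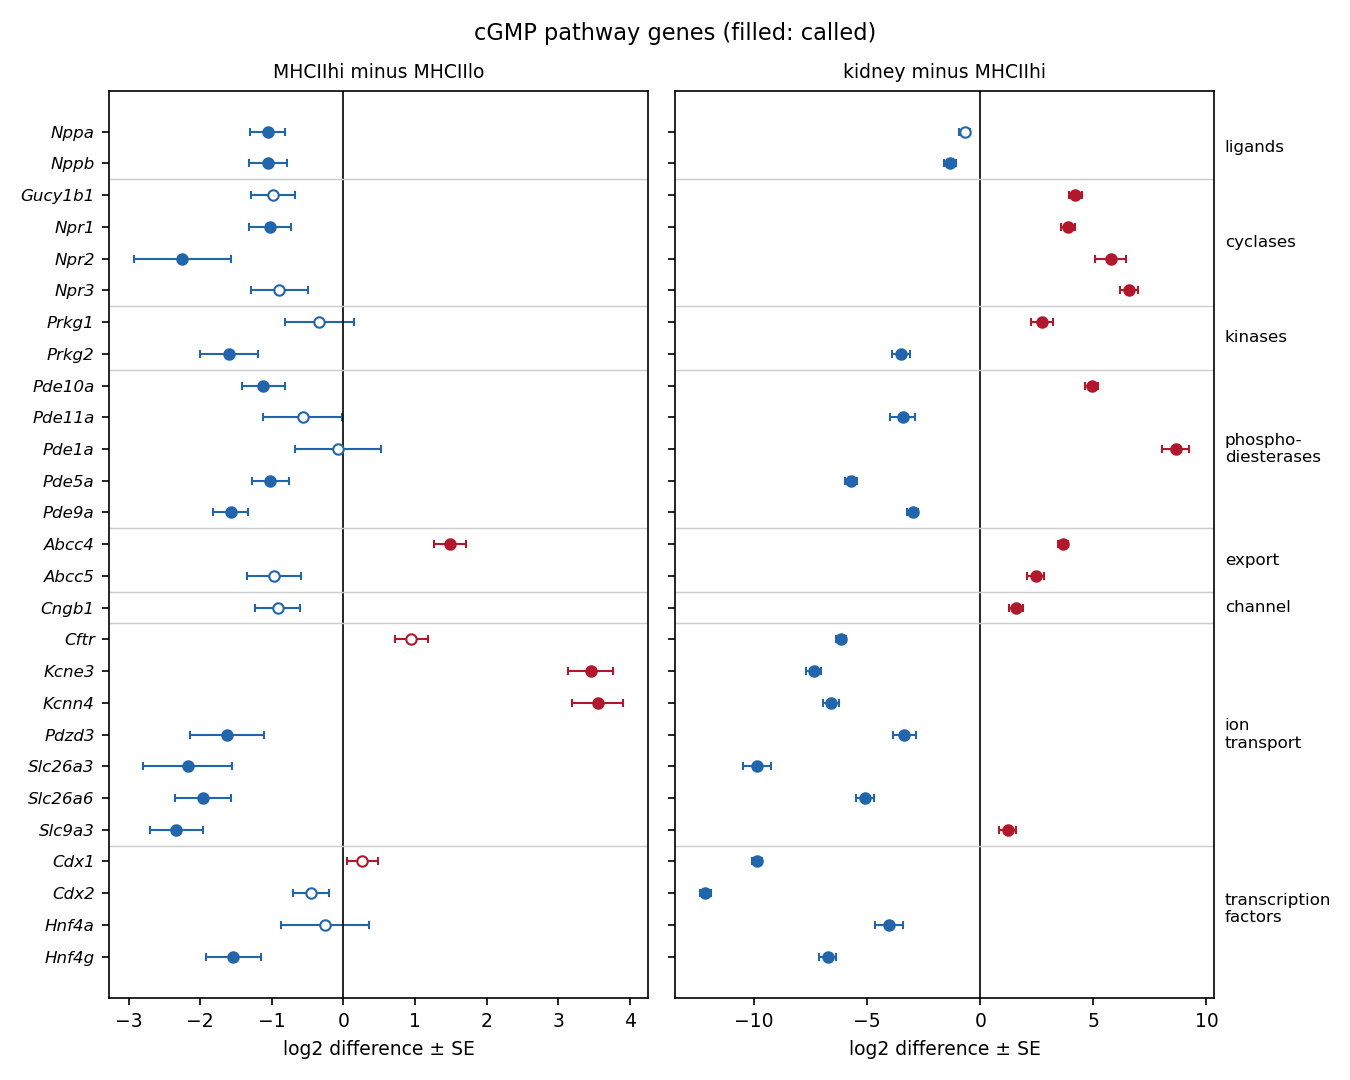
Log2 differences ± SE (x axes) of named genes of the cyclic GMP pathway (y axis, grouped by role) between MHCIIhi and MHCIIlo (left) and between kidney and MHCIIhi (right). Filled points passed the rule. Among ion transport genes Kcnn4 (3.55) and Slc9a3 (-2.33) lie at the ends on the left, and on the right Cdx2 (-12.15) is the lowest, followed by Cdx1 and Slc26a3 (-9.87 each). Npr1 and Pde10a are filled on the left but were not well above background in either intestinal group.

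Genes of ion transport and its scaffolds moved in both directions, with 4 of 13 called higher and 6 lower in MHCIIhi. By the same rule 14.9% of all genes were higher and 16.1% lower. Cftr, the chloride channel that cyclic GMP opens, stood at 1.56 in MHCIIhi, 0.61 in MHCIIlo and -4.59 in kidney. Its difference between the intestinal groups, 0.95 ± 0.23 (SE; limma adjusted p = 0.0104), was just under the size of the rule, and in kidney it was lower by -6.15 and -5.20, both called. Kcnn4 and Kcne3, a potassium channel and a channel subunit used in chloride secretion, were higher in MHCIIhi by 3.55 and 3.45, and Slc12a2, the basolateral chloride importer, by 3.21.

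Exchangers of sodium and chloride absorption were lower in MHCIIhi. Slc9a3, which encodes NHE3, was lower in MHCIIhi than in MHCIIlo by -2.33 ± 0.37 (SE; limma adjusted p = 0.00207), and the chloride-bicarbonate exchangers Slc26a3 and Slc26a6 by -2.18 and -1.96. Pdzd3, a scaffold protein that binds guanylate cyclase C, was lower by -1.63 (limma adjusted p = 0.0284) and was lower still in kidney. With slide as a fixed block the intestinal differences of Slc9a3, Kcnn4 and Kcne3 were still called, and those of Slc26a3 (-0.84), Slc26a6 (-0.93) and Pdzd3 (-0.98) were not. The calls of Slc26a3 and Pdzd3 were also lost with slide as a random block (-1.78 and -1.44) and without any one of MHCIIhi 1, MHCIIhi 2, MHCIIlo 2 and MHCIIlo 3, and that of Pdzd3 with quantile normalization (-1.29). Kidney held more Slc9a3 than MHCIIhi (1.21, called) and less than MHCIIlo (-1.12, called) by its brightest probe. The other probe differed from MHCIIhi by -0.50, not called, and from MHCIIlo by -3.32, called. The call against MHCIIhi was lost with the mean of probes (0.36), the authors' deposited value table (0.94), slide as a random block (1.16) and without MHCIIhi 1 (1.13), MHCIIhi 2 (0.93) or kidney 3 (0.95). That against MHCIIlo was lost with quantile normalization (-0.65), normexp (-0.75), slide as a random block (-0.96) and without MHCIIlo 2 (-1.05), MHCIIlo 3 (-1.06), kidney 1 (-0.86) or kidney 2 (-1.12), so the place of kidney between the intestinal groups was not settled.

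Cdx1, Cdx2, Hnf4a and Hnf4g, transcription factors of the intestinal epithelium, were lower in kidney than in gut, as the receptor was. Cdx2 stood at 4.14 in MHCIIhi and 4.60 in MHCIIlo and was not well above background on any kidney array, so it was at least 1116-fold lower there than in MHCIIhi and at least 1530-fold lower than in MHCIIlo. Cdx1 was at least 233-fold and 194-fold lower. Hnf4a and Hnf4g were lower in kidney than in MHCIIhi by -4.05 and -6.76. The kidney arrays of Hnf4a lay apart, at 1.32 on kidney 1 against -1.14 and -1.44, whereas those of Gucy2c lay together. Between the intestinal groups Hnf4g was called and the brightest probes of the other three were not, though for Hnf4a the other 2 of its 3 probes were called lower in MHCIIhi, the 3 spanning -1.30 to -0.26. Hnf4g was lower in MHCIIhi by -1.54 ± 0.38 (SE; limma adjusted p = 0.0116) and by -1.14, not called, with slide as a fixed block.

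The genes whose pattern over the 9 arrays was nearest to each member were found by the root mean square of the centred log2 differences, among 14110 candidate genes. For Guca2a they were Plcb3, a phospholipase C (0.158), Leng9 (0.169), Alpk1, a kinase that senses a bacterial sugar (0.183), Paqr4 (0.222) and Slc25a24, a mitochondrial carrier (0.223). For Guca2b they were Cgref1 (0.107), Aspa, which splits N-acetylaspartate (0.251), the peptidase Ace (0.404), the glycerol kinase Gk2 (0.407) and Slc5a11, a myo-inositol transporter (0.414). For Gucy2c they were Pigr, which carries IgA across the epithelium (0.165), the protease Tmprss4 (0.182), the transcription factor Gata6 (0.213), the receptor Acvr1c (0.260) and the gasdermin Gsdme (0.267). The 3 sets had no gene in common, and no member was among the 5 nearest genes of another.

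Cgref1 followed Guca2b array by array. It stood at 5.38, 4.90 and 6.37 in MHCIIhi, at 6.89, 7.57 and 7.87 in MHCIIlo and at 3.61, 0.70 and 0.61 in kidney. Both genes had the same order of arrays within each group, with kidney 1 high by 2.95 for Cgref1 and 3.12 for Guca2b. Aspa, Ace and Slc5a11 were also higher on kidney 1, by 2.67, 2.37 and 2.17, and Gk2 was well above background on that kidney array alone. Guca2a and Guca2b were 0.93 apart by the same measure, and Guca2b was at rank 850 of the candidates from Guca2a. These distances are descriptions over 9 arrays that share the gap between gut and kidney. The genes were picked by their pattern over all 9 arrays, kidney 1 included. A raised kidney 1 among those nearest to Guca2b therefore follows from that choice.

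**Figure D5:**
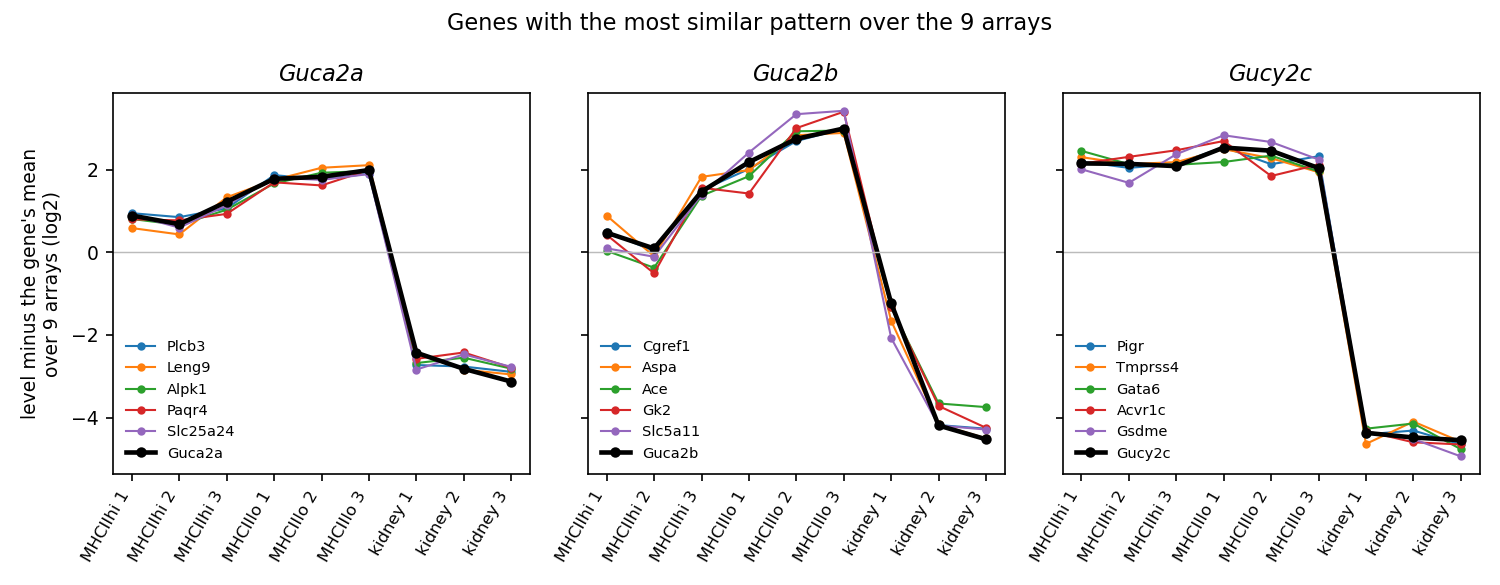
Level of each member (black) and of the 5 genes with the most similar pattern (colours), each minus its own mean over the 9 arrays (log2, y axis), by array (x axis). The Guca2b panel shows kidney 1 raised in all 6 lines, and the Gucy2c panel shows flat intestinal arrays and low kidney arrays. The genes were picked on these same arrays, so their likeness to the member follows from the choice. Lines join arrays for reading only, since replicates have no order.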

How the data were processed

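RNA of 9 sorted pools was hybridised with Cy3 to single-colour Agilent arrays and scanned into spot values with the software Agilent Feature Extraction 10.5.1.1. Its processed signal, deposited for every spot, is a linear intensity, background-subtracted by the scanner software and not normalized between arrays, as the headers state. A value table that the authors deposited gives this intensity divided by each array's median (largest relative deviation 2.37e-05), linear and not centred by gene. Later steps of the authors are not given in the sources used here.

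Control spots (of 45018 spots, 43379 were not controls) and outlier flags were left out, and 0 spots were saturated. Spots of a probe were averaged, and log2 signals were set against the array's 75th percentile. A gene was its brightest probe. The filter kept 19993 genes, those well above background on each of the 3 arrays of 1 group or more. Names came from RefSeq (GRCm38.p6) for the 24375 probes whose unversioned accession it held, and from the file for 16799. Groups were compared with limma 3.58.1 (lmFit, eBayes) in R 4.3.3 and its package data.table, version 1.17.8, over all 9 arrays. The code was tested on simulated data. Precision is limited by having 3 arrays in a group. Replicates were taken as independent pools, and p-values measure the spread between these pools.

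The members and gene lists were chosen with earlier results of these data known. Named genes were the members, 8 fixed pathway genes and up to 4 further called genes per role with the largest difference, the 5 nearest patterns, the 3 nearest neighbours per side and each marker list's first 3 genes. Slc12a2, Slc27a2, Acsm2, Treh, Anpep, Fabp1 and the genes leading kidney 1 were named after their values were seen. Some results that the rule covers are not reported here. Alternatives were other scalings, normexp with offset 50, the authors' table, filters, probe choice, priors, slide and replicate number as blocks, thresholds and leaving out each array. Same-numbered arrays did not deviate together (correlations of 0.19, -0.34 and 0.27 between the intestinal groups), so numbers were not taken as pairs. Plots used matplotlib 3.10.9 and pandas 2.3.3.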

Additional observations from a re-analysis of the deposited data

How the results depend on the processing

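Of 219 repeats of the 9 member comparisons, 208 kept direction and side of the threshold, 9 were called only in the repeat and 2 turned sign. All 6 differences from kidney kept their calls in every repeat run. Guca2a between the intestinal groups was called with the median scaling (-1.01), with no minimum size (-0.93) and without MHCIIhi 3, and leaving out single arrays gave -1.08 to -0.81. Guca2b was called with normexp (-1.67), and at -1.96 with the filter on all 9 arrays, on 6 arrays alone and with a trend and robust prior, and leaving out single arrays gave -2.36 to -1.67. Gucy2c turned to 0.0020 with quantile normalization and 0.064 with normexp. With replicate number as a block, Guca2a gave -0.93 (limma adjusted p = 0.0214), Guca2b -1.96 (0.0870) and Gucy2c -0.22 (0.327), and that block changed no call of a member. It gave 6138, 9637 and 11487 genes called. Quantile normalization moved the median of all genes between the intestinal groups from -0.24 to -0.07. Genes called between the intestinal groups (6196) numbered 2952 with normexp, 4024 with the filter on all 9 arrays, 1672 with slide as a fixed block, 10009 with no minimum size, 4119 at an adjusted p below 0.01 and 4274 to 8283 with single arrays left out. From MHCIIhi to kidney (9678) the filter on all 9 arrays gave 5447, and from MHCIIlo to kidney (11512) it gave 7018 and no filter 17718. Pathway genes called between the intestinal groups (23) numbered 13 with normexp, 9 with slide as a fixed block, 13 at an adjusted p below 0.01 and 15 to 30 with single arrays left out, and the filter on all 9 arrays left 22 (from MHCIIhi) and 26 (from MHCIIlo) in kidney, with fewer genes tested. With normexp 39.7% and 26.9% of kidney calls were higher against MHCIIhi and MHCIIlo, in place of 52.9% and 51.7%. For ratios of members, Guca2a against Guca2b from MHCIIhi to kidney ran from -0.17 to 1.13 with single arrays left out (-0.15 without kidney 2, -0.17 without kidney 3), and Guca2b against Gucy2c from MHCIIlo to kidney was -0.38 with normexp and ran from -0.14 to 1.41. Pathway genes that turned sign between the intestinal groups were Prkg1 (0.43 with quantile normalization, 0.029 with slide as a fixed block, -0.87 to 0.22 with single arrays left out), Pde1a (1.17 and 0.29 with slide as a fixed and a random block, -0.70 to 0.30 with single arrays left out), Npr3 (0.18 with quantile normalization) and Hnf4a (0.11 with quantile normalization, 0.051 with normexp). From MHCIIlo to kidney they were Prkg1 (-0.80 with normexp, -0.0081 with the mean of probes), Pde10a (-0.19), Gucy1b1 (-0.54) and Npr1 (-0.79) with normexp, and Cngb1 (-0.99 with normexp, -0.65 with the mean of probes), and from MHCIIhi Cngb1 (-0.090 with normexp). Of the other repeats of named pathway genes, 1942 kept direction and call, 93 lost the call and 15 gained it. The cause of these changes was not tested. Dim probes such as that of Gucy2c in kidney depend most on background correction by construction, and 3 arrays per group limit every value.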

Other observations

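The genes next to the members were read by the array's own mm8 positions, the 3 nearest on each side. Foxj3, whose probe lies 9.93 kb from that of Guca2a, was called in 0 of the 3 comparisons, with levels of 1.65 in MHCIIhi, 2.17 in MHCIIlo and 1.93 in kidney. The other neighbours of the peptide genes moved in both directions. Rimkla (174 kb), Zmynd12 (189 kb) and Hivep3 (481 kb) were called higher in kidney than in either intestinal group by limma, with kidney levels of -1.23, -4.29 and -3.84. Rimkla and Zmynd12 were not well above background on any intestinal array, and Hivep3 was on 1 of 6. Edn2, which encodes endothelin 2 and whose probe lies 510 kb from that of Guca2b, stood at 2.85 in MHCIIhi and 2.97 in MHCIIlo against -5.20 in kidney, where it was lower by -8.05 and -8.17 (limma adjusted p = 7.23e-08 and 5.76e-08). Foxo6 (610 kb) was lower in kidney by -3.92 and -5.58 and lower in MHCIIhi than in MHCIIlo by -1.66, all called.

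Around Gucy2c, Plbd1 at 85.9 kb was lower in kidney than in MHCIIhi and MHCIIlo by -8.42 and -9.32 (limma adjusted p = 7.28e-07 and 3.65e-07). The histone genes H4f16 and H2aj were also called lower in kidney, by -2.78 and -2.31 and by -2.40 and -1.87. Grin2b was called lower in kidney than in MHCIIlo alone (-1.15), and Atf7ip and Wbp11, on either side, were called in no comparison.

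The genes that led kidney 1 over the other kidney arrays were Akr1c18 (by 7.93 on the log2 scale), Aadat (7.36), Slc7a12 (6.66) and Slc22a19 (6.40). Slc22a7, an organic anion transporter, stood at 4.28 on kidney 1 against -1.76 and -0.96. Mep1b, a brush border peptidase subunit, stood at 1.32 against -4.48 and -4.04. None of Akr1c18, Aadat and Slc7a12 was well above background on any intestinal array, unlike Guca2b, which was highest in the gut. Mep1b, like Guca2b, was higher in the gut, with means of 4.07 in MHCIIhi and 5.80 in MHCIIlo. Apoc3, also among the genes leading kidney 1 (-1.04 against -5.85 and -5.15), had intestinal means of 2.77 and 4.51.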
